A study of Rattus norvegicus with 18 samples.

Results

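The cytoplasmic ribosomal protein genes of the rat, which encode the proteins of the large and small ribosomal subunits outside mitochondria, were followed through 18 RNA-seq libraries of cells with and without MYC and with knockdown of the aryl hydrocarbon receptor (AHR). They were chosen by symbol alone: Rpl or Rps followed by a number and at most one of the letters a, x or y, together with Rplp0, Rplp1, Rplp2 and Rpsa. This took 77 of the 13188 genes of the deposited table, 46 of the large and 31 of the small subunit, and all 77 had a value in every library. The rule used no measured value. All cells were HO15.19, a Rat1 fibroblast line without functional myc (myc-/-), or its derivative with MYC, grown in 10% serum. In the MYC comparisons, MYC and the derivation of those cells therefore change together. The paper describes the myc-/- cells of its RNA-seq as carrying vector. The groups of 3 libraries were myc-/- cells without transfection, myc-/- cells that stably expressed human MYC after viral infection (myc-/- + MYC) without transfection, both kinds of cell after transfection of the control siRNA siCtrl, and MYC-expressing cells given 1 of 2 siRNAs against Ahr (siAHR-2 or siAHR-5). The siRNA was used at 40 nM and cells were harvested after 48 h. Nothing in the labels says whether the 3 libraries of a group came from separate cultures, so the p-values measure the spread between these libraries, which may be technical.

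Each ribosome holds a single copy of most of these proteins, and a growing cell makes them in matched amounts for assembly with ribosomal RNA in the nucleolus. Their mRNAs are among the most abundant of a cell and typically begin with a 5′ terminal oligopyrimidine (TOP) tract, a run of C and U bases that starts at the cap and through which mTOR signalling controls their translation. MYC is known as a general activator of ribosome production, acting on ribosomal RNA, on assembly factors and on ribosomal protein genes.

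The table fell into 2 sets of libraries on different scales, and groups were compared only within a set. The untransfected myc-/- + MYC libraries and the myc-/- siCtrl libraries formed the set of 6. The set of 12 was made of both siAHR groups, their control myc-/- + MYC siCtrl, and untransfected myc-/-. In each set MYC changes together with the transfection label, in opposite directions, so the parts of the 2 cannot be told apart. In bulk RNA, a change in the number of cells and a change in RNA per cell cannot be told apart either. The median of all genes lay between 11.00 and 11.05 in the libraries of the set of 6 and between 11.61 and 11.68 in those of the set of 12; no counts can be read from the values, so read depth is unknown. Ahr, the target of the siRNAs, fell with both (log2 fold change, log2FC, -1.29 by siAHR-2, -1.39 by siAHR-5) and rose with MYC in both sets (0.52 and 1.40). The Myc row was lower in the cells with MYC in both sets (-1.26 and -2.68) and lay at 10.82 to 10.94 in the myc-/- libraries of the set of 12; human MYC has no separate value here, so its expression was not checked. Of 9 fibroblast markers 8 had a mean above 10 in every group, the exception being Col1a2 at 3.64 to 4.13, while none of 4 epithelial, 3 leukocyte and 4 endothelial markers did. The summed level of the fibroblast markers moved with the groups: on the log2 scale it was 20.82 to 20.83 in myc-/- siCtrl against 19.90 to 19.99 in myc-/- + MYC, 21.95 to 22.18 in myc-/- against 20.23 to 20.25 in myc-/- + MYC siCtrl, 19.99 to 20.03 with siAHR-2 and 19.95 to 19.97 with siAHR-5. With MYC in the set of 6 the markers went both ways, 4 called higher (Col3a1 1.30, Pdgfra 0.25, S100a4 0.17 and Vim 0.13) and 5 lower, among them Col1a1 (-1.73) and Fn1 (-1.76); in the set of 12, 7 were called lower and 0 higher. Markers of the other cell types moved with MYC as well: in the sets of 6 and 12 Krt8 was higher (1.70 and 1.17), Tek was higher (1.61 and 0.38) and Cd3e was lower (-2.09 and -1.13). Within each list the calls were mixed. With MYC in the set of 6, Krt19 (-0.27) was called against Krt8, Cdh5 (-0.54) and Kdr (-0.03) against Tek, and Cd68 (0.35) against Cd3e. Pecam1 (0.20) went with Tek there and Ptprc (-0.15) with Cd3e. Krt19, Cdh5, Kdr and Cd68 had no call in the set of 12. The summed epithelial level was 8.18 to 8.25 in myc-/- siCtrl and 8.63 to 8.81 in myc-/- + MYC, and 7.76 to 7.92 in myc-/- and 8.77 to 9.11 in myc-/- + MYC siCtrl, with Epcam at 1.22 to 2.42 in all libraries. The summed leukocyte level was 9.61 to 9.72 and 8.36 to 8.50, and 8.47 to 8.56 and 7.93 to 8.12, with Ptprc at 2.84 to 4.65. For the endothelial markers, in the same order, it was 8.1 to 8.2 and 8.4 to 8.5, and 9.3 to 9.4 and 9.5 to 9.6. The part of these markers in the ribosomal protein results was not tested.

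The mean of the 77 deposited log2 values was 15.40 to 15.43 in the 3 myc-/- siCtrl libraries and 16.23 to 16.27 in the 3 myc-/- + MYC libraries. In the set of 12 it was 15.95, 16.17 and 15.96 in myc-/- replicates 1, 2 and 3, 16.40 to 16.44 with MYC and siCtrl, 16.43 to 16.47 with siAHR-2 and 16.06 to 16.18 with siAHR-5. Replicate 2 of myc-/- stood apart, with the highest of the 3 myc-/- values for all 77 genes. Replicate 2 of siAHR-5 was the highest of its group for 59 of the 77. Most genes lay high in the table. Rpl37a, a zinc-binding protein of the large subunit, was the exception at 4.80 to 5.58, and the next lowest value of any member was 11.71, for Rps19. The values are not per length, so members were not ranked against each other by level, and because ribosomal protein genes have many near-identical processed copies in the genome, each value is uncertain as far as reads were shared with such copies.

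Promoters of 62 of the 77 genes were found by symbol in RefSeq sequences of the assembly GRCr8 (250 bases before and 50 bases from the annotated start), Rps27a with 2 of them, so that 63 promoters were read. The longest run of C and T that reached within 5 bases of the start was at least 7 bases long, called a pyrimidine tract here, in 43 of the 63 (68.3%), against 11.7% of 10249 promoters of other genes in the table and 12.6% of all 33469 promoters. The median run was 10 bases in the ribosomal protein genes and 3 in the others. Windows of 30 bases, 15 before the start and 15 from it, are given below 5′ to 3′ for members that mark the ends of the comparisons, with the longest such run in capitals whether or not it reached 7 bases. Among the members with a promoter, Rps26, Rpl37, Rps18, Rps12 and Rpl21 were near the top of the MYC response, and Rps13, Rps15a and Rps4x near the bottom. Rpl34 and Rps21 fell most with siAHR-5, and Rpl5, Rpl11 and Rpl3 changed with siAHR-2.
Rps26, chr7:1643390-1643419, minus strand: gagagccgccgggTCCTCTTTCgagtcttg
Rpl37, chr2:55942930-55942959, plus strand: tggtaggcgtaCTTTCTCTTCCggtctctt
Rps18, chr20:4933730-4933759, plus strand: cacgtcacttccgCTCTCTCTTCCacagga
Rps12, chr1:23500060-23500089, plus strand: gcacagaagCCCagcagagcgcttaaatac
Rpl21, chr12:13386139-13386168, minus strand: ttcctttccgCCggggcagccatcttccag
Rps13, chr1:180009646-180009675, minus strand: gccgtttcctacctcgTTCTCTCTTTgctt
Rps15a, chr1:181860270-181860299, minus strand: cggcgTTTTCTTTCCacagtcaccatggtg
Rps4x, chrX:71342907-71342936, minus strand: tccagcgcgcgcagCCTCCgaccctaattt
Rpl34, chr2:221962269-221962298, minus strand: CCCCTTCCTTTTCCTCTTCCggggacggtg
Rps21, chr3:187724023-187724052, plus strand: gaacgagccaCTTCCTTTCTgtgttctccg
Rpl5, chr14:1995211-1995240, minus strand: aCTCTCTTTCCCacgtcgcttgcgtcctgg
Rpl11, chr5:153560788-153560817, minus strand: ggggacttgaagCTTgtttggtgctgggga
Rpl3, chr7:113507976-113508005, minus strand: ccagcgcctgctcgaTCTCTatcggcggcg

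Long tracts stood at both ends of the MYC response. Rps13 and Rps15a, near the bottom of it, had runs of 10 bases, as long as the median, while Rps12 and Rpl21, near the top, had runs of 3 and 2 bases at their annotated starts. The 43 genes with a tract had a median MYC log2FC of 0.85 in the set of 6 and 0.41 in that of 12, beside 0.74 and 0.37 for the 19 without one. With siAHR-5 the medians were -0.31 and -0.32. The E-box CACGTG, a palindrome that MYC can bind, was in 7.94% of the members' promoters and in 8.73% of those of the other genes; CACGCG, read on both strands and unable to overlap with it, was in 15.9% and 15.5%. These are matches of letters within the promoters as read, not sites.

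**Figure D1:**
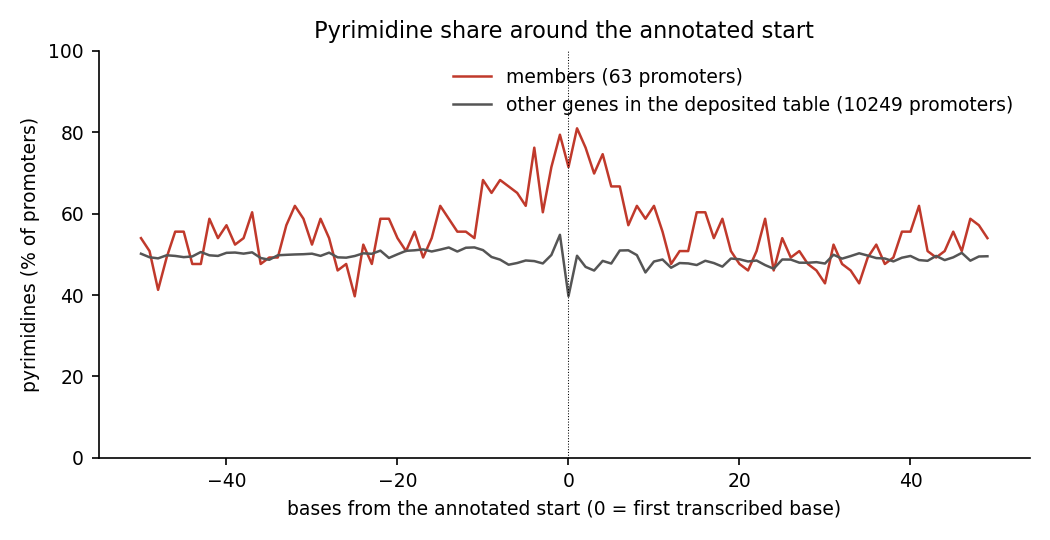
Share of promoters with C or T at each base from 50 before to 50 after the annotated start, for 63 promoters of ribosomal protein genes and 10249 of other genes in the table (RefSeq, GRCr8). In the ribosomal protein genes the share was 79.4% at the last base before the start and 81.0% at the base after the first transcribed one, against 54.8% and 49.6% in the other genes.

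The first question was how the ribosomal protein genes differed between cells with and without MYC. In the set of 6, all 77 were higher in myc-/- + MYC than in myc-/- siCtrl, with a median log2FC of 0.85, a fold of 1.80, and a range from 0.21 to 1.41. A gene was called when the adjusted p of limma's test, Benjamini-Hochberg over all 13188 genes, was at most 0.05. Among all genes tested 37.3% were called higher and 39.0% lower, with a median log2FC within 0.01 of 0, and among 370 other genes with a mean of at least 15 the share called higher was 26.5%. No member was lower, at an unadjusted p under 0.05 either. The 3 libraries with MYC lay above the 3 without for all 77 genes, against 37.9% of all genes tested. With the stricter cutoffs of an adjusted p of at most 0.01 and a fold of at least 1.5, 59 members were higher, against 12.5% of all genes. Large subunit genes (median 0.84) and small subunit genes (0.86) had nearly the same median.

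Rps26, a small subunit protein at the mRNA exit channel, had values of 16.50, 16.42 and 16.41 with MYC and 15.06, 15.03 and 15.03 without, a log2FC of 1.41 (SE 0.031, limma adjusted p = 1.09e-11). Rpl32, a large subunit protein often used as a reference gene, had 16.82, 16.76 and 16.75 against 15.48, 15.48 and 15.50, a log2FC of 1.29 (SE 0.029). In both genes the groups were separated by far more than the spread within a group. Rpl37, a large subunit zinc-binding protein (1.31), and Rps18 of the small subunit head (1.27) were the other 2 at the top. At the lower end, Rps13, a protein of the small subunit body, had 16.15, 16.16 and 16.14 with MYC and 15.95, 15.90 and 15.92 without, a log2FC of 0.22 (SE 0.027, limma adjusted p = 1.47e-05). Rps15a (0.28), Rps4x, the X-linked form of Rps4 (0.28), and Rpl37a (0.21) were beside it. Even there the groups did not overlap. The values of Rpl37a, 4.80 to 5.58 over all libraries, lay far below those of any other member.

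In the set of 12, 55 of the 77 (71.4%) were called higher in myc-/- + MYC siCtrl than in myc-/- cells and 1 was called lower, against 31.6% and 33.1% of all genes tested; the median log2FC was 0.41 and that of all genes tested within 0.01 of 0. The share called higher among 869 other genes with a mean of at least 15 was 30.1%. The MYC libraries lay above all 3 myc-/- libraries for 54 members, against 33.8% of all genes. Under the stricter cutoffs 21 members were higher, against 10.8% of all genes, and all 21 had also passed them in the set of 6. Rps26 again had the highest log2FC, with 16.47, 16.43 and 16.46 against 15.42, 15.63 and 15.41, a difference of 0.97 (SE 0.064, limma adjusted p = 4.39e-05). It was followed by Rps12, a protein of the small subunit beak (0.88), Rps25, a head protein that some viral mRNAs need for initiation (0.83), and Rpl21 of the large subunit (0.83). Rps13 was the 1 gene called lower. Its values were 16.50, 16.52 and 16.43 with MYC and 16.62, 16.84 and 16.62 without, a log2FC of -0.21 (SE 0.069, limma adjusted p = 0.0401), and the call was lost when any 1 of the MYC libraries was left out and after quantile normalization (log2FC -0.07) or centring on other genes of high level (-0.03). Rplp2, an acidic protein of the stalk (-0.15), Rps15a (-0.08) and Rpl27a of the large subunit (-0.07) also had negative values and were not called, their groups overlapping. Without replicate 2 of myc-/-, 67 members were higher.

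The order of the members was much alike in the 2 sets, which share no library. Over the 77 genes, which are not independent replicates, Pearson's r of the log2FC was 0.788 and Spearman's rho 0.767, beside 0.741 and 0.714 over all genes. Rps26, Rps18, Rps12, Rpl21, Rpl23a, Rpl8 and Rps28 were among the 10 highest in both sets, and Rps13, Rps15a, Rps4x, Rpl5 and Rpl17 among the 10 lowest in both.

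The size of the difference was not alike. The log2FC was lower in the set of 12 for 76 of the 77 genes, by a median of 0.41, and the difference between the sets, tested in one fit of the 12 libraries concerned, was called lower for 67 (87.0%) and higher for none, against 30.1% and 24.8% of all genes and 35.8% lower among 551 other genes with a mean of at least 15. No member had a positive difference at an unadjusted p under 0.05 by limma. Under the stricter cutoffs 17 members differed, against 9.67% of all genes. Rpl32 was among the members with the largest differences. Its values in the set of 6 are given above, with a log2FC of 1.29, and in the set of 12 they were 16.46, 16.54 and 16.31 with MYC against 15.93, 16.16 and 15.95 without, a log2FC of 0.42. The groups did not overlap in either set but lay closer in the second, with a difference of -0.87 (SE 0.086, limma adjusted p = 7.55e-07). Rpl26, an exit tunnel protein that also binds p53 mRNA (-0.74), and Rpl28 of the large subunit (-0.72) were lower as well. Rpl19, also at the exit tunnel, rose by 0.50 and 0.53 in the 2 sets, a difference of 0.02 (95% interval -0.14 to 0.19). Rpl9 (-0.08), Rps2 at the mRNA entry channel (-0.08) and Rplp0, the anchor of the stalk (-0.12), also had differences that were not called. After quantile normalization Rpl19 (0.32) was called higher and Rps2 (-0.22) and Rplp0 (-0.49) lower. The scale of the values, the transfection label and the set all change between these comparisons, and their parts cannot be told apart.

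**Figure D2:**
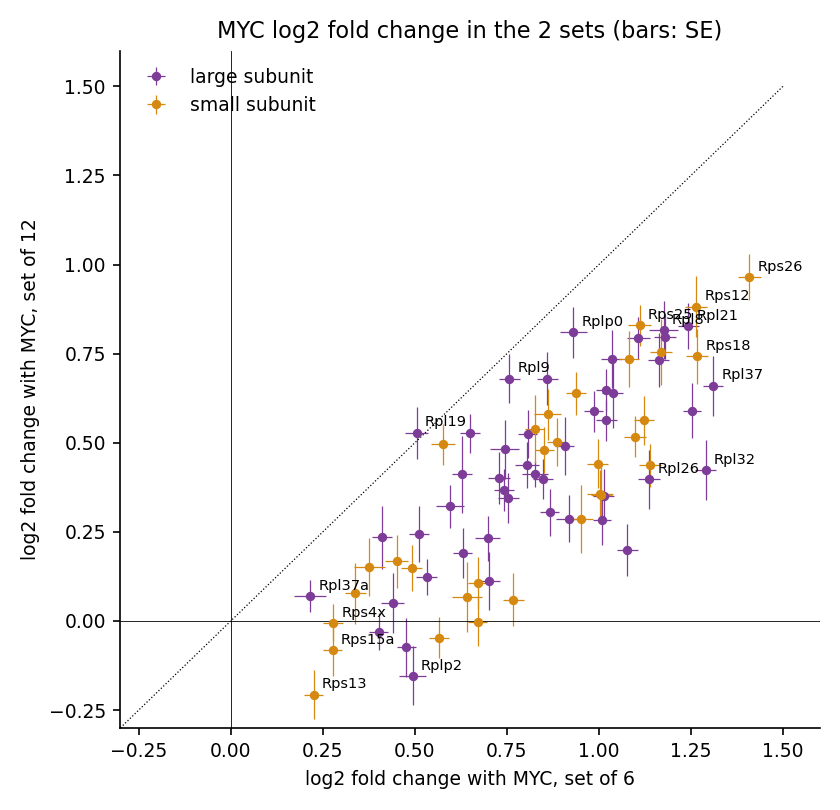
Log2FC with MYC of each of the 77 ribosomal protein genes in the set of 6 libraries (horizontal) and in that of 12 (vertical), with the standard error of each as bars and a dotted line where both are equal. Points below the line, 76 of 77, had the lower log2FC in the set of 12; Rps26 lies at the upper right and Rps13 at the lower left.

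The second question was what knockdown of AHR did to these genes in cells with MYC. Both siRNAs were compared with the same 3 siCtrl libraries, so the 2 comparisons are not independent and their values are given side by side. With siAHR-5, 64 of the 77 genes (83.1%) were called lower and none higher, against 18.1% lower and 21.1% higher among all genes tested, and 43.8% lower among 802 other genes with a mean of at least 15. With siAHR-2, 8 (10.4%) were called higher and 3 (3.90%) lower, against 13.7% and 15.5% of all genes and 10.3% higher and 48.2% lower among 797 other genes with a mean of at least 15. The share of members higher was near both backgrounds, and the share lower was below them. The median log2FC of the members was -0.32 with siAHR-5 and 0.02 with siAHR-2, and that of all genes within 0.02 of 0 in both. The siAHR-2 count depended on the scaling: 40 members were called higher after quantile normalization, against 15.3% of all genes, and 38 after centring on other genes with a mean of at least 15, against 45.9% of all genes, which is near the members' share. The count was 3 without siAHR-2 replicate 1 or 2 and 4 without siCtrl replicate 2. The siAHR-5 count was 53 and 68 under the same scalings, against 19.4% and 13.3% of all genes called lower.

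With siAHR-5 the 3 knockdown libraries lay below all 3 controls for 68 members, against 22.2% of all genes, and no member was higher at an unadjusted p under 0.05 by limma. Rpl7, a large subunit protein, had 16.86, 16.82 and 16.81 with siAHR-5 against 17.39, 17.41 and 17.48, a log2FC of -0.60 (SE 0.029, limma adjusted p = 0.000258). It was the only member past the stricter cutoffs, against 0.849% of all genes. Its siAHR-2 values of 17.37, 17.38 and 17.37 lay just below the controls, a log2FC of -0.06 that was not called (limma adjusted p = 0.159). Rpl34 of the large subunit (-0.55), Rps21 of the small subunit (-0.46) and Rpl36a, a large subunit protein at the tRNA exit site (-0.44), were next lowest. At the other end, Rps2 had 18.99, 19.11 and 18.99 against 19.06, 19.08 and 19.12, overlapping groups with a log2FC of -0.05, which became 0.23 and was called higher after quantile normalization, and -0.11 and called lower after median centring. Rpl37a (0.00), whose values lay far below those of any other member, was not called either. Nor were Rpl8, next to the peptidyl transferase center (-0.07), and Rpl29 (-0.16). Rpl29 was called without siCtrl replicate 3 (-0.23) and after median centring (-0.22). In 7 of the 13 genes without a call, among them Rpl8, Rps19, Rpl7a, Rps9 and Rplp2, the standard error was above 0.08, and in each of these replicate 2 of siAHR-5 was the highest of its group; without it 69 members were lower.

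With siAHR-2 the calls were small. Rpl3, a core protein near the peptidyl transferase center, rose most: 18.68 in all 3 siAHR-2 libraries against 18.35, 18.41 and 18.42, a log2FC of 0.29 (SE 0.024, limma adjusted p = 0.00128). The same gene had 18.22, 18.21 and 18.17 with siAHR-5, a log2FC of -0.20. Rpl13a, known for a role outside the ribosome in translational silencing, rose by 0.15, and Rpl24, Rps26, Rpl39, Rpl30 and Rpl23a were also called higher, with log2FC between 0.08 and 0.13. Rpl8 (0.23) and Rps27, a zinc-finger protein of the small subunit (0.18), were higher in all 3 libraries and were not called (limma adjusted p = 0.0715 and 0.0995). Both were called after quantile normalization (0.29 and 0.26) and after centring on other genes of high level (0.30 and 0.26), Rpl8 also after median centring (0.20) and Rps27 without siCtrl replicate 3 (0.11). Rpl11 fell most, from 16.70, 16.75 and 16.73 to 16.50, 16.52 and 16.48, a log2FC of -0.23 (SE 0.020, limma adjusted p = 0.00135). Rpl15, a large subunit protein mutated in some cases of Diamond-Blackfan anemia, fell by 0.19 and Rpl5 by 0.10; the Rpl5 call was lost after quantile normalization, after centring on other genes of high level (-0.02) and with all 12 libraries in one fit (limma adjusted p = 0.113). No member passed the stricter cutoffs with siAHR-2 by limma, while 12 were higher and 5 lower at an unadjusted p under 0.05.

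The 2 siRNAs differed from each other when compared directly. Members called lower with siAHR-5 than with siAHR-2 numbered 70 of 77 (90.9%) and members called higher 0, also at an unadjusted p under 0.05 by limma, against 17.0% lower and 22.1% higher among all genes and 27.9% lower among 773 other genes with a mean of at least 15. The median difference was -0.34. It was largest for Rpl7 (-0.54), with Rpl34 (-0.51) near it, and smallest for Rps2 (-0.04). Rpl37a, Rpl7a, Rpl8, Rplp2, Rps19 and Rps9 were the other 6 without a call. Ahr itself was at 11.97, 11.97 and 12.03 with siAHR-2 and at 11.95, 11.76 and 11.94 with siAHR-5.

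**Figure D3:**
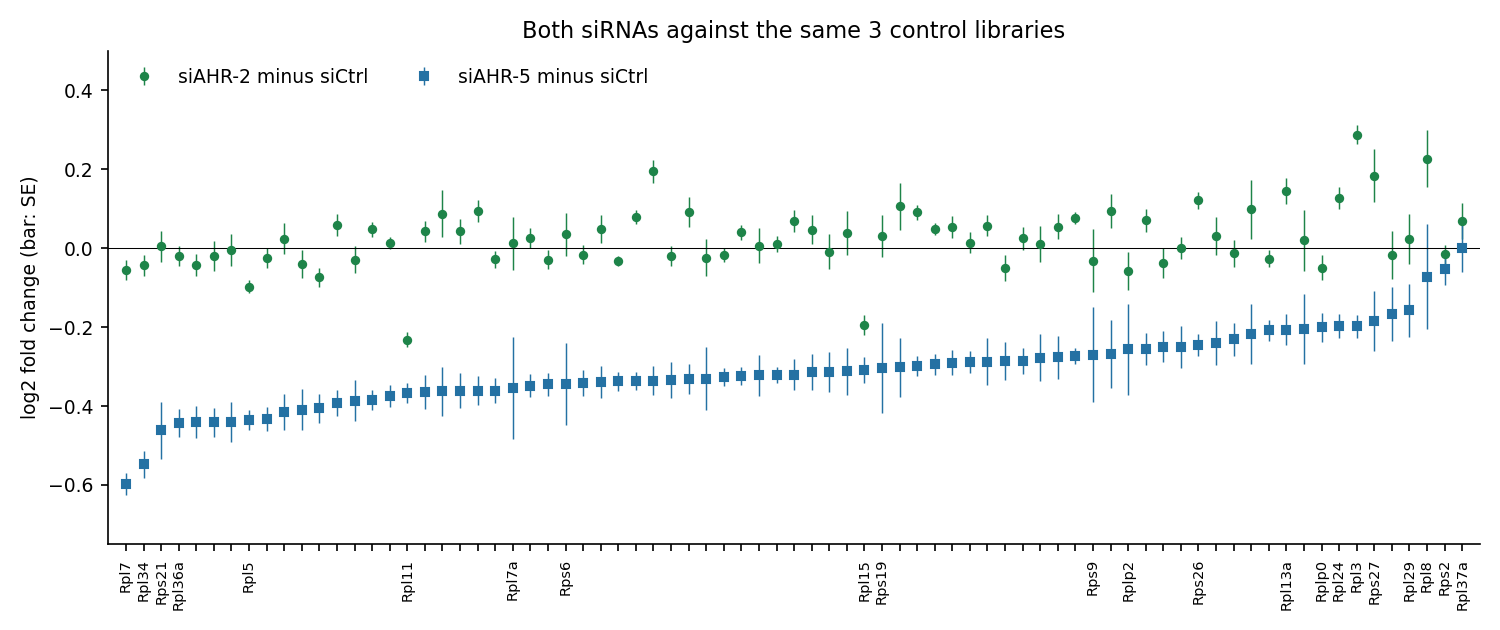
Log2FC of each ribosomal protein gene with siAHR-2 (circles) and siAHR-5 (squares) against the same 3 siCtrl libraries, with standard errors, ordered by the siAHR-5 value; names are given for some of the genes in the text. The siAHR-5 points lie between -0.60 (Rpl7) and 0.00 (Rpl37a), below the siAHR-2 points for all 77 genes, and Rpl11, Rpl15 and Rpl5 are the lowest of the siAHR-2 points.

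**Figure D4:**
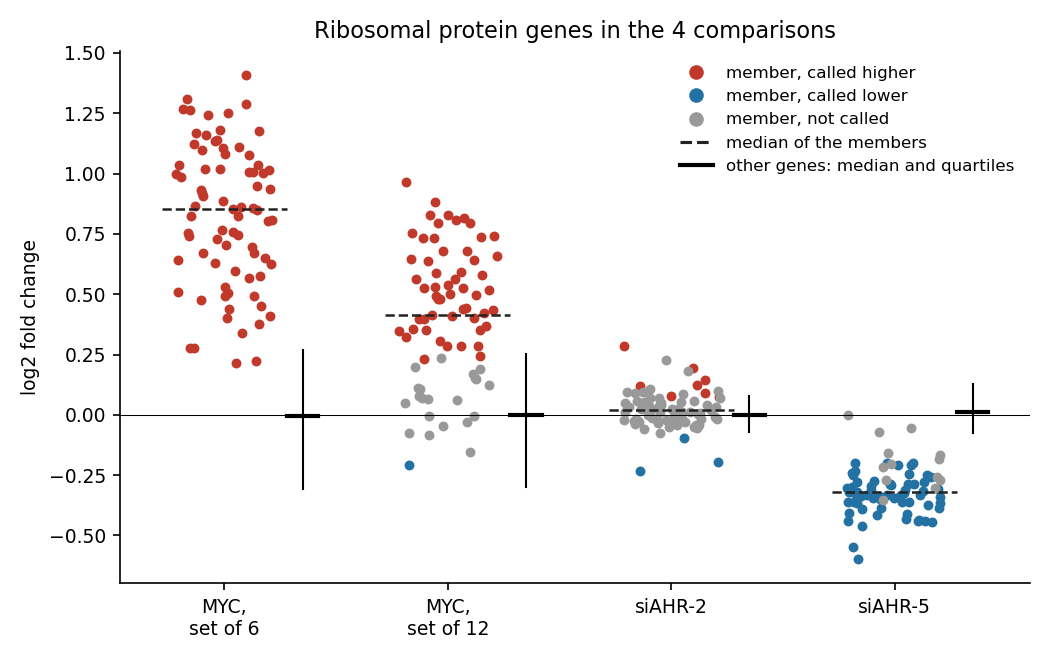
Log2FC of the 77 ribosomal protein genes (points, spread sideways for legibility, coloured by limma's call) in the 4 comparisons with dashed lines at their medians of 0.85, 0.41, 0.02 and -0.32. The bar to the right of each group gives the median and quartiles of the other genes of the table, which lie on both sides of 0.

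By place in the ribosome, the 5S RNP proteins Rpl5 and Rpl11, which carry the 5S rRNA into the large subunit and bind MDM2 when assembly is disturbed, differed in the MYC response, Rpl5 being among the 10 lowest members in both sets. Rpl5 had 16.43, 16.44 and 16.43 against 16.02, 16.03 and 16.05 in the set of 6, a log2FC of 0.40 (SE 0.025), and 16.71, 16.76 and 16.72 against 16.71, 16.87 and 16.71 in the set of 12, a log2FC of -0.03 that was not called, whose groups overlapped and which became 0.16 after quantile normalization and 0.15 after high-level centring, both called. Rpl11 rose by 0.74 and 0.37, between the quartiles of the members in each set. Both were among the 3 members lower with siAHR-2, though the Rpl5 call was lost under both scalings named for it, and both fell with siAHR-5, Rpl5 to 16.33, 16.29 and 16.26 (log2FC -0.43, limma adjusted p = 0.000362) and Rpl11 to 16.37, 16.40 and 16.33 (-0.37).

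Of the P stalk, which recruits the elongation factors, Rplp0 rose from 17.79, 17.86 and 17.90 to 18.83, 18.77 and 18.74 in the set of 6 and from 18.75, 18.94 and 18.74 to 19.56, 19.67 and 19.64 in the set of 12, log2FC of 0.93 and 0.81. Rplp1 rose by 1.04 and 0.74 and Rpl12, at the stalk base, by 0.80 and 0.44. Rplp2 had the lowest log2FC of the 4 in both sets, 0.49 in the set of 6 and -0.15 without a call in that of 12. Its difference from the others was not tested. With siAHR-5, Rplp0 (-0.20), Rplp1 (-0.25) and Rpl12 (-0.38) were lower; Rplp2 had -0.26 and was not called, but was without replicate 2 of siAHR-5 (-0.38) and after median centring (-0.32). After quantile normalization the calls of Rplp0 (-0.03) and Rplp1 (-0.08) were lost. None of the 4 was called with siAHR-2 on the deposited values; Rplp0 was called higher after quantile normalization (0.07) and lower without siCtrl replicate 1 (-0.08), and Rpl12 was called higher after quantile normalization (0.13) or high-level centring (0.12).

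At the rim of the peptide exit tunnel, all of Rpl17, Rpl19, Rpl23a, Rpl26, Rpl31, Rpl35 and Rpl39 rose in the set of 6 (median 0.60), 5 of the 7 rose in the set of 12 (median 0.32) and 6 fell with siAHR-5 (median -0.30). Among all members 100% were called higher in the set of 6, 71.4% were called higher in the set of 12 and 83.1% lower with siAHR-5. The shares of all genes were 37.3%, 31.6% and 18.1%. The exit tunnel shares were thus near those of the members as a whole. Rpl23a, a docking site for the signal recognition particle, had the highest values, 1.18 and 0.80, and Rpl31 was not called in the set of 12 (0.24) or with siAHR-5 (-0.22). Of the 4 proteins of the mRNA entry channel and decoding site, Rps2, Rps15 and Rps23 were called higher in both sets and Rps3 in the set of 6; 3 fell with siAHR-5, and Rps2 did not pass.

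A chosen list of 11 members mutated in Diamond-Blackfan anemia, an inherited failure of red cell production, need not hold every such member. All 11 rose in the set of 6 (median 1.00), as did all 77 members, against 37.3% of all genes. Of the 11, 8 rose in the set of 12 (median 0.41) and 9 fell with siAHR-5 (median -0.33). These shares too were near the 71.4% and 83.1% of all members, beside 31.6% and 18.1% of all genes. With siAHR-2, 1 was higher and 3 were lower, and these 3 (Rpl5, Rpl11 and Rpl15) were all of the members called lower, against 3.90% of the members and 15.5% of all genes. Rps19, the gene most often mutated in that disease, had 13.24, 13.11 and 13.16 with MYC against 12.83, 12.73 and 12.83, a log2FC of 0.38 (SE 0.042). In the set of 12 its values of 12.14, 12.11 and 12.26 overlapped with 11.90, 12.18 and 11.99, and neither that log2FC (0.15) nor the siAHR-5 one (-0.30) passed the test. The first was called without myc-/- replicate 2 (0.23) and after centring on other genes of high level (0.33). The second was called without siAHR-5 replicate 2 (-0.43), with all 12 libraries in one fit, and after quantile normalization (-0.33), median centring (-0.36) and high-level centring (-0.23).

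Several members have known lives outside the ribosome or a signalling role. Rps6, the substrate of S6 kinase, rose by 1.00 in the set of 6 and 0.36 in that of 12 and fell by 0.34 with siAHR-5 (limma adjusted p = 0.0488). Its siAHR-5 values of 14.83, 15.11 and 14.72 lay below the controls at 15.17, 15.24 and 15.29, with replicate 2 close to them. This call was lost without the mean-variance trend (limma adjusted p = 0.0611), after quantile normalization (0.0519), with the replicate block (0.0647), and without siAHR-5 replicate 1 or 3 or any 1 siCtrl library (0.087 to 0.137). Rpsa, also described as a laminin receptor, rose by 0.86 and 0.58 and fell by 0.29, a call that quantile normalization ended (-0.07). Rps27a, made as a fusion with ubiquitin, rose by 0.67 in the set of 6, had 0.11 without a call in the set of 12 (called without myc-/- replicate 2, at 0.18, and at 0.28 after quantile normalization or high-level centring), and fell by 0.35. Rpl22, which many cells can replace by its paralog Rpl22l1, rose by 0.86 and 0.68 and fell by 0.31. None of these 4 was called with siAHR-2 on the deposited values, where their log2FC lay between -0.01 and 0.03. Rps27a was called higher after quantile normalization (0.11) and after high-level centring (0.10), and Rpsa after the latter (0.10).

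**Figure D5:**
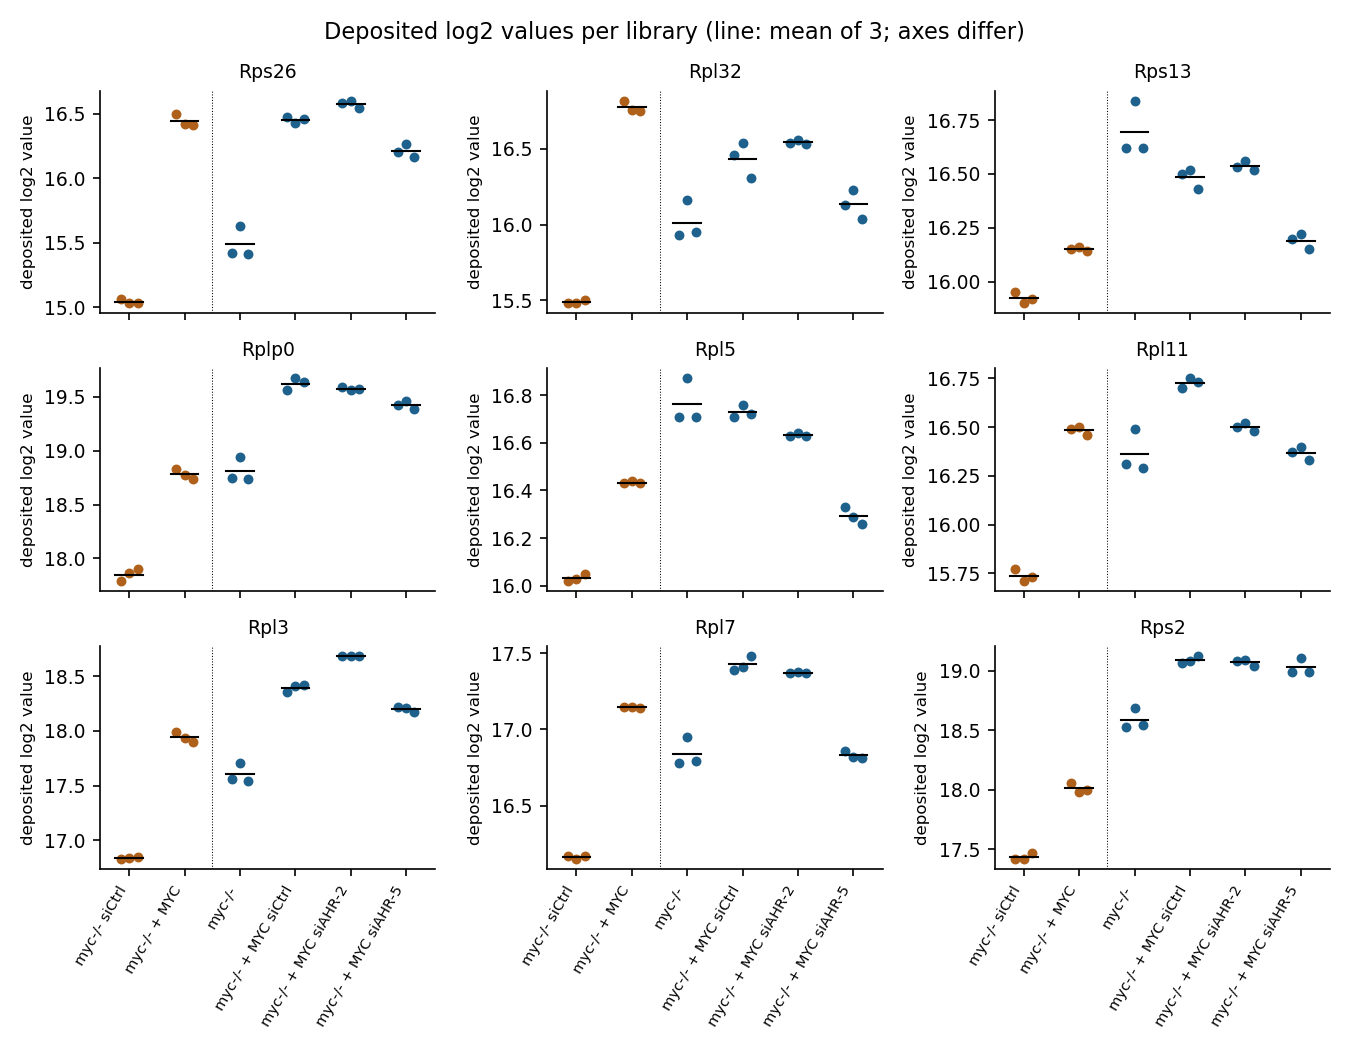
Deposited log2 values of 9 ribosomal protein genes in each of the 18 libraries (points) with the mean of each group of 3 (line); the dotted line separates the set of 6 (left) from the set of 12 (right), whose scales differ, and each panel has its own axis. Replicate 2 of myc-/- is the highest of its group in every panel, Rps13 is lower with MYC in the set of 12, and Rpl7 with siAHR-5 lies at 16.81 to 16.86.

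Mitochondrial ribosomal protein genes, which serve the separate ribosomes of mitochondria, had medians nearer to 0 than the members in 3 of the 4 comparisons and farther from 0 with siAHR-2; the difference between the groups of genes was not tested. Of 67 measured, 36 were higher and 13 lower with MYC in the set of 6 (median log2FC 0.16), 32 and 7 in the set of 12 (0.15), 7 and 17 with siAHR-2 (-0.06), and 4 and 44 with siAHR-5 (-0.19). For these and the lists that follow, the shares of all genes called higher and lower were 37.3% and 39.0% with MYC in the set of 6, 31.6% and 33.1% in that of 12, 13.7% and 15.5% with siAHR-2, and 21.1% and 18.1% with siAHR-5. Genes that belong with ribosomal proteins but lie outside the symbol rule varied. Gnb2l1, the older symbol of Rack1, a scaffold on the small subunit, rose by 0.93 and 0.62 and fell by 0.42 with siAHR-5. Of the 9 such genes measured, 5 were called higher with MYC and 2 lower in the set of 6, 3 and 1 in that of 12, 2 and 1 with siAHR-2, and 1 and 5 with siAHR-5.

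Among other TOP mRNAs, 12 of 14 were higher and 1 lower with MYC in the set of 6, 8 and 2 in that of 12, 1 and 5 with siAHR-2, and 0 and 13 with siAHR-5. Npm1, a nucleolar chaperone of ribosome assembly, rose by 1.06 and 1.03. Eef1a1, the elongation factor that brings tRNA to the ribosome, rose by 0.44 in the set of 6 and fell by 0.49 in the set of 12. Eef1d, a subunit of its exchange factor, fell by 0.83 with siAHR-5. Of 17 chaperones and late assembly factors, 10 had calls higher with MYC and 4 lower in the set of 6, and 9 and 2 in that of 12. The counts were 0 and 5 with siAHR-2, and 0 and 14 with siAHR-5. Nob1, the nuclease that finishes 18S rRNA, rose by 1.23 and 0.80, while Eif6 was lower with MYC in both sets (-0.58 and -0.61). Ltv1, an export factor of the small subunit, fell by 0.99 with siAHR-5. Of 8 regulators of TOP mRNAs, 4 were higher in each MYC comparison and 3 and 2 lower, which is near those shares. With siAHR-2, 0 of them were higher and 2 lower, and with siAHR-5 0 and 3. Eif4ebp2, a repressor of cap-dependent translation, rose by 0.82 and 1.55, while Eif4ebp1 of the same list was lower in both sets (-0.48 and -0.39). Mtor fell by 0.44 in the set of 6 and had -0.01 without a call in the set of 12. It fell by 0.48 with siAHR-2 and by 0.20 with siAHR-5.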

How the data were processed

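RNA-seq values of 18 libraries in 6 groups of 3 were used as the authors deposited them, on a log2 scale. Per the paper's methods and the submitters' processing notes, reads were aligned to rn6 with HISAT2 2.1.0, genes with fewer than 10 total reads were removed and the rest normalized with DESeq2. The counter, annotation and log transformation are not given in the sources used here. The deposited log2 values are labelled log CPM but are not CPM: taken off the log scale they sum to between 86.3 and 161 times what CPM would give in a library, and no counts can be recovered, so depth and the precision it gives are unknown. Listed symbols without a row, such as Larp1 and Rpl10l, were not analysed here. No value column was without a sample.

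Groups were compared with limma 3.58.1 in R 4.3.3 (mean-variance trend, only the groups compared in each fit), with Benjamini-Hochberg adjustment over 13188 genes. A call needs an adjusted p of at most 0.05, the FDR of the study's methods; the stricter cutoffs add an adjusted p of at most 0.01 and a log2FC of at least 0.585 in size. Intervals are at 95%. The fits were tested on simulated data. Members and lists were chosen with earlier results of these data known. Genes named are the 4 highest and 4 lowest members of each MYC and siRNA comparison, the 5S RNP and P stalk members, Rps6, Rps19, Rpsa, Rps27a and Rpl22, the 4 largest differences between sets, members past the stricter cutoffs where at most 10, and up to 4 genes of each other list, those with the largest log2FC in size; other members are named where a count of 5 or fewer, a list or a printed promoter called for them, chosen after their values were seen. Some genes that this rule takes are not reported here. Motifs were read with Python 3.11.15, and figures were drawn with matplotlib 3.10.9. Alternatives were the stricter cutoffs, no trend, quantile normalization, median centring, a minimum mean of 1, a pseudocount of 1, the replicate block, all 12 libraries in one fit and leaving out each library; centring on other genes with a mean of at least 15 was added after seeing the data.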

Additional observations from a re-analysis of the deposited data

Results flagged for a closer look

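The difference in MYC response between the sets of 6 and 12 libraries was picked out because a test of the difference itself called it. The log2FC was called lower in the 12 libraries than in the other 6 for 67 members, and among the largest differences of log2FC were those of Rpl32 (-0.87), Rpl26 (-0.74) and Rpl28 (-0.72). Scale, transfection label and set change together there and cannot be told apart. The difference between the 2 siRNAs was picked out by a test of the same kind, with 70 members lower with siAHR-5 than with siAHR-2; the cause was not tested.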

How the results depend on the processing

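The calls rest on 3 libraries a group and on scaled log2 values of unknown depth. With MYC in the set of 6, all 77 members stayed higher under every alternative except the stricter cutoffs (59). Their median log2FC was 0.97 after quantile normalization, 0.81 after median centring and 1.14 after centring on other genes of high level, an alternative chosen after seeing the data; without 1 library it was 0.84 to 0.86. In the set of 12, 21 were higher under the stricter cutoffs and 50 to 67 without 1 library. The count lower there was 0 under the stricter cutoffs, quantile normalization and high-level centring, and 0 to 1 without 1 library. The median was 0.60 and 0.59 under these 2 scalings, and 0.38 to 0.50 without 1 library. High-level centring moved the median of all genes to 0.28 and 0.18 in the 2 MYC comparisons.

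With siAHR-2, members higher numbered 0 under the stricter cutoffs, 40 after quantile normalization (15.3% of all genes), 38 after high-level centring (45.9% of all genes), 2 with all 12 libraries in one fit, and 3 to 9 without 1 library. Members lower numbered 0 under the stricter cutoffs, 6 after median centring, and 3 to 5 without 1 library, the 5 without siCtrl replicate 1. The median was 0.11, -0.011 and 0.10 after quantile normalization, median centring and high-level centring, and -0.00422 to 0.0304 without 1 library. With siAHR-5, members lower numbered 1 under the stricter cutoffs and 58 to 69 without 1 library, and 1 was higher after quantile normalization. The median was -0.20 after quantile normalization and -0.25 after high-level centring. Between the siRNAs 0 were lower under the stricter cutoffs and 63 to 76 without 1 library, and 1 was higher after quantile normalization. The difference between the sets was lower for 17 under the stricter cutoffs and for 64 to 70 without 1 library, and higher for 1 after quantile normalization. The causes were not tested.

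Directions of named members that turned with a call under either setting were, after quantile normalization, Rpl5 with MYC in the set of 12 (0.16; 0.15 after high-level centring), Rpl5 (0.00104) and Rplp0 (0.065) with siAHR-2, and Rps2 with siAHR-5 (0.23) and between the siRNAs (0.038). Another 26 values of named members, not called under either setting, turned sign under another scaling, and 12 without 1 library. Among calls over all genes, the share higher moved from 48.9% to 76.2% and from 48.8% to 71.3% with MYC under high-level centring. With siAHR-2 it moved from 47.0% to 30.8% under median centring and 82.8% under high-level centring, and with siAHR-5 from 53.9% to 32.0% and 78.9%. Median centring moved it from 56.5% to 43.5% between the siRNAs and from 45.2% to 62.7% for the difference between the sets.

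With the replicate block, 4 members were higher with siAHR-2, and 56 with MYC in the set of 12. Deviations of same-numbered libraries correlated between -0.256 and 0.242, so the numbers were not taken to pair the libraries.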

Other observations

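Members with a close paralog outside the symbol rule did not always move with it. Rpl22 was higher with MYC in both sets (log2FC 0.86 and 0.68) and lower with siAHR-5 (-0.31), while Rpl22l1 had 0.29 and -0.01 with MYC and was higher with both siRNAs (0.32 with siAHR-2 and 0.25 with siAHR-5, limma adjusted p = 0.0318 and 0.0276). Rps27 had 0.95 and 0.29 with MYC, and Rps27l -0.27 with MYC in the smaller set and 0.69 in the larger, a change of direction between the sets (limma adjusted p = 8.89e-08 for the difference). Rpl36a and Rpl36al both fell with siAHR-5, by 0.44 and 0.42. These pairs were chosen after their values were seen, paralogs can share reads, and the differences within a pair were not tested.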
